A study of Mus musculus with 24 samples.

Results

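The genes described here are 10 that mark the adipocyte, followed in whole pancreas as a reading of fat tissue in the samples. They are the adipokines Adipoq, Lep, Retn and Cfd, the lipid droplet proteins Plin1 and Cidec, the lipases Lipe and Pnpla2, the fatty acid carrier Fabp4 and the nuclear receptor Pparg. The list was taken from what these genes are known for, and every array probe that the platform annotation gives to 1 of them was read. The annotation named 14 probes for 9 of the 10 genes, out of 45281 probes on the array, and it named none for Cfd. Of the 14 probes, 6 passed the detection filter (detection p below 0.05 in 4 or more of the 24 arrays), as did 15328 probes in all, which covered 9164 named genes. The 6 were 1 probe each of Adipoq, Lep, Retn, Lipe, Pnpla2 and Pparg.

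Pancreas RNA came from male C57BL/6J mice that were bought at 3 weeks of age, housed singly under a reversed light cycle and fed a high-fat diet (60% fat) for 12 weeks. All 6 groups ate this diet, the controls too, and 12 mice had been randomized to each group, of which 4 arrays per group were analysed. The control group drank water, and the AFFB group drank an alcohol-free fermented beverage of blackberry and blueberry that supplied 8.4 mg of anthocyanins per kg per day. Groups on the phenolic extract of that beverage (PAE) received 1.1 (0.1X), 9.0 (1X) or 18.9 (3X, as the titles call it) mg per kg per day, and the last group drank sitagliptin, which blocks the incretin-degrading protease DPP-IV, dissolved at 150 mg per L. Whether every array came from its own mouse is not stated in so many words, and the p-values reflect only the variation among these arrays, some of which may be technical. In whole tissue, fewer adipocytes and less RNA per adipocyte cannot be told apart.

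Adipocytes store triglyceride in a large lipid droplet whose surface carries perilipin 1 and CIDEC, and they release fatty acids from it through the lipases ATGL, encoded by Pnpla2, and HSL, encoded by Lipe. PPARγ, with C/EBP factors, drives their differentiation and the transcription of many of their genes, and FABP4 carries fatty acids through their cytosol. They also secrete hormones, among them adiponectin, leptin and, in mice, resistin. The pancreas lies within visceral fat and can hold adipocytes between its lobules, so these transcripts can enter a pancreas sample from either place.

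Adipoq, Lep and Cidec were the members whose highest values fell on the same arrays, and their promoters are therefore shown. The sequences come from RefSeq on build GRCm38.p6 and run from 250 bases before to 50 bases after each annotated start, 5′ to 3′ on the gene's strand. RefSeq promoters matched 9 of the 10 genes, with 13 promoters, and none was matched for Fabp4. Capitals mark matches to any of 4 searched motifs on either strand.
Adipoq, chr16:23146286-23146585, plus strand: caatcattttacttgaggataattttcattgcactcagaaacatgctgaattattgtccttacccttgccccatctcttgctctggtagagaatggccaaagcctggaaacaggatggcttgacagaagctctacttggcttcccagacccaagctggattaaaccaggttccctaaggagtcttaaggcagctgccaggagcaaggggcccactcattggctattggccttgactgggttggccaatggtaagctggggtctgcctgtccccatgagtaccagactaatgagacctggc
Lep, chr6:29059971-29060270, plus strand: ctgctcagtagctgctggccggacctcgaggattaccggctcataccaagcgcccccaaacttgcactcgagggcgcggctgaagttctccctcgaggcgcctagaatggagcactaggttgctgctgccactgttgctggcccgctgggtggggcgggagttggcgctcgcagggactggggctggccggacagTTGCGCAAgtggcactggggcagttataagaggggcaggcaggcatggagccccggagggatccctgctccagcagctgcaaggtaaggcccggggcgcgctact
Cidec, first promoter, chr6:113435711-113436010, minus strand: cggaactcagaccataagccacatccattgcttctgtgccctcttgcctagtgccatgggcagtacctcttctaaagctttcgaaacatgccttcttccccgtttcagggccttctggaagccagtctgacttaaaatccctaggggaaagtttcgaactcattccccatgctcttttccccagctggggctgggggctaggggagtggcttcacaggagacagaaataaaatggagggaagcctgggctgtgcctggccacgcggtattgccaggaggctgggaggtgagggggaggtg
Cidec, second promoter, chr6:113434715-113435014, minus strand: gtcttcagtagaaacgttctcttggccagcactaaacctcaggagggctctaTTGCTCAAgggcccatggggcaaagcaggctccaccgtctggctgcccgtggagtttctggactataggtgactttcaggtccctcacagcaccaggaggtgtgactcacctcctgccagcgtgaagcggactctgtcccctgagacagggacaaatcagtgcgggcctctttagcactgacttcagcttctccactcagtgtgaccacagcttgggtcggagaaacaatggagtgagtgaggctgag
The motifs were the C/EBP core TTGCNNAA, the DR1 repeat to which PPARγ binds with RXR, its building block AGGTCA, and the TATA box TATAAA. The Lep promoter held TTGCGCAA at bases 196 to 203, counted from the 5′ end, and the second Cidec promoter held TTGCTCAA at bases 53 to 60. These letters were absent from the Adipoq window and from the first Cidec window. The C/EBP core occurred in 10.8% of the 32851 promoters of this length, AGGTCA in 16.26%, TATAAA in 13.62% and the full DR1 repeat in 0.03957%, so a match to the core is common.

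The samples read as pancreas. All 12 acinar marker genes with a kept probe were detected on 24 of 24 arrays, among them the carboxypeptidase gene Cpa1 at 13.6 to 14.1 and the elastase gene Cela2a at 14.2 to 14.5 on the log2 scale of normalized signal. The hormone gene Ins2 ranged from 10.7 to 14.1. Between 10888 and 14060 probes were detected per array. On the first principal component 3 arrays stood apart (PAE 1X replicate 2, AFFB replicate 2 and sitagliptin replicate 3), and 5 others had high Dbp, a clock output gene, up to 11.4 against at most 8.41 elsewhere (water replicate 4, PAE 1X replicate 4, PAE 3X replicates 2 and 3, sitagliptin replicate 4). Results on Adipoq are given without these arrays beside its differences from water, and those on Lpl beside its calls.

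Adipoq, which encodes the hormone adiponectin, was near the background of the array on most samples and far above it on a few. In log2 normalized signal it read 4.55, 5.88, 7.24 and 4.40 on the 4 water arrays and 4.44, 4.69, 5.26 and 4.27 on the AFFB arrays. The PAE arrays read 4.55, 6.03, 5.44 and 4.43 at 0.1X, 7.78, 4.66, 4.31 and 4.52 at 1X, and 4.49, 4.65, 4.34 and 6.58 at 3X. On the sitagliptin arrays Adipoq read 4.87, 4.65, 6.13 and 4.48. Each group held at least 1 array at 5.26 or above and at least 1 at 4.55 or below, so all 6 groups overlapped. Adipoq was detected on 10 of the 24 arrays, 1 or 2 in every group, and its highest value was 8.71-fold its lowest detected one.

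The 6 highest Adipoq arrays came from 5 of the 6 groups: PAE 1X replicate 1, water replicate 3, PAE 3X replicate 4, sitagliptin replicate 3, PAE 0.1X replicate 2 and water replicate 2. Group means ran from 5.52 ± 1.32 in water through 5.32 ± 1.64 in PAE 1X, 5.12 ± 0.76 in PAE 0.1X, 5.03 ± 0.75 with sitagliptin and 5.01 ± 1.05 in PAE 3X to 4.67 ± 0.43 in AFFB (SD, n = 4 arrays each). Neighbours in this order lay closer together than the SD of either. The spread lay inside the groups. The SD between arrays of a group was 1.07 for Adipoq, at the 99.8th percentile of all kept probes, whose median was 0.245, and 7.55% of its variance lay between groups against a median of 18.8%. Of 2438 kept probes with a mean within 0.25 log2 units of that of Adipoq, 5 varied as much within groups, and both counts include Adipoq itself.

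Lep, the gene of the satiety hormone leptin, was high on the same 2 arrays that led for Adipoq. It read 4.38, 4.59, 6.13 and 4.37 on the water arrays and 4.22, 4.62, 4.60 and 4.38 on the AFFB arrays. On the PAE arrays it read 4.40, 5.19, 4.74 and 4.38 at 0.1X, 6.14, 4.65, 4.38 and 4.39 at 1X, and 4.30, 4.58, 4.84 and 4.85 at 3X. Sitagliptin arrays read 4.54, 4.52, 4.95 and 4.37. Water replicate 3 and PAE 1X replicate 1 stood apart from all other arrays, of which the highest was at 5.19, and the remaining arrays of the 6 groups overlapped. Lep was detected on 7 arrays and on none of the AFFB arrays, where only a bound can be given. The water mean was 1.13-fold this bound and the PAE 1X mean 1.14-fold, each resting on 1 detected array. The undetected arrays of those groups entered at their own signal, so these ratios are not strict lower limits.

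Retn, the gene of resistin, stayed close to background throughout. It was detected on 2 water arrays, 1 PAE 3X array and 2 sitagliptin arrays, and its 24 values lay between 4.17 and 4.81. Group means ran from 4.28 ± 0.11 in PAE 1X to 4.63 ± 0.20 with sitagliptin. Unlike Adipoq and Lep, Retn was not raised on PAE 1X replicate 1 (4.42) or water replicate 3 (4.40). Cfd, which encodes the complement protease adipsin, was not analysed here.

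The droplet genes divided. Cidec, whose protein promotes fusion of lipid droplets, was detected on 3 arrays and so did not pass the filter. It read 4.35, 4.38, 5.58 and 4.22 on the water arrays, 5.62, 4.24, 4.45 and 4.23 in PAE 1X and 4.33, 4.29, 4.21 and 5.16 in PAE 3X. In the other groups it lay between 4.21 and 4.68 and was not well above background. The 3 detected arrays were the 3 highest for Adipoq. Plin1, which encodes the main droplet coat protein of adipocytes, was detected on 1 array by one of its probes (PAE 0.1X replicate 3, 4.87) and on 0 by the other. That probe read 4.34 on PAE 1X replicate 1 and 4.23 on water replicate 3, so it did not follow Cidec.

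Fabp4, a transcript that adipocytes make in abundance, was detected on 1 array, sitagliptin replicate 1, at 4.70. Its other 23 values lay between 4.18 and 4.56, with 4.21 on PAE 1X replicate 1 and 4.29 on water replicate 3. A defining adipocyte gene was thus not well above background on the arrays where Adipoq was highest, each gene being read by its own probe.

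The lipases were not raised on those arrays as a pair. Pnpla2 was the only member detected on all 24 arrays, and its enzyme is also known from tissues other than fat. It read 7.62, 7.63, 8.12 and 7.59 on the water arrays and 7.55, 7.67, 7.35 and 7.68 on the AFFB arrays. On the PAE arrays it read 7.61, 7.88, 7.58 and 8.21 at 0.1X, 7.50, 7.97, 7.53 and 7.48 at 1X, and 7.42, 7.60, 7.46 and 7.40 at 3X. Sitagliptin arrays read 7.46, 7.98, 8.05 and 7.82. Its range of 7.35 to 8.21 was narrow. Water replicate 3 was high for Pnpla2 within its group, whereas PAE 1X replicate 1 was not.

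Lipe was read by 3 probes, of which 1 was kept. That probe was detected on 4 arrays (water replicate 1 at 5.08, AFFB replicates 2 and 3 at 5.23 and 4.89, PAE 3X replicate 3 at 4.73) and ranged from 4.24 to 5.23. The other 2 Lipe probes were detected on 0 arrays. None of the 4 detected arrays was among the 6 highest for Adipoq.

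Pparg, the regulator, was likewise read by 3 probes, with 1 kept. The kept probe was detected on 5 arrays (water replicate 3, PAE 0.1X replicates 2 and 3, PAE 1X replicate 2, PAE 3X replicate 1), with 4.31 as its lowest and 5.20 as its highest value. A further Pparg probe was detected on 1 array and the last on 0. Group means of the kept probe lay between 4.53 ± 0.046 in AFFB and 4.63 ± 0.39 in PAE 1X.

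**Figure D1:**
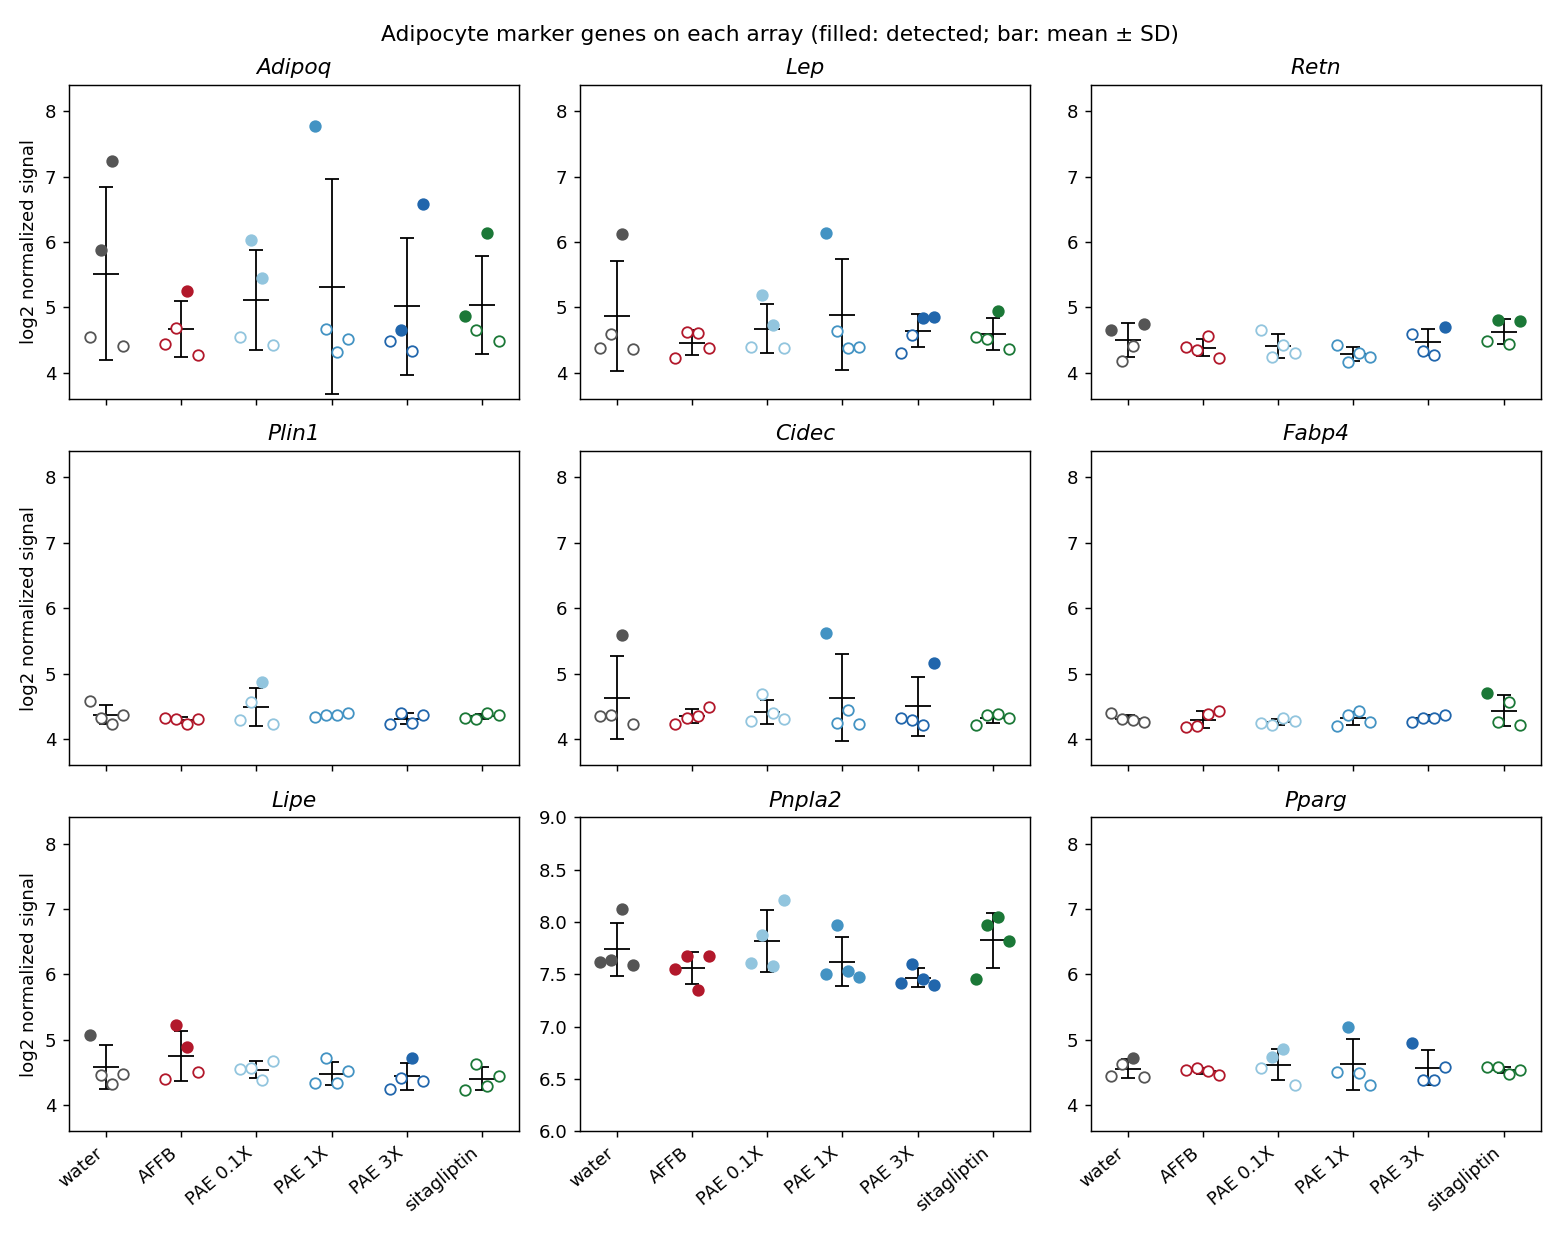
Log2 normalized signal (y axis) of the 9 genes with a probe on each array, by group (x axis), with the mean and SD of the 4 arrays as bars. Filled points were detected and open points were not. The Pnpla2 panel has its own y range. Adipoq reaches 7.78 on PAE 1X replicate 1 and 7.24 on water replicate 3, where Lep and Cidec are also high and Plin1 and Fabp4 are not.

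Each treated group was compared with water to ask whether the drink moved these transcripts in the pancreas of mice on a high-fat diet. Adipoq was lower than water by 0.85 log2 units in AFFB, with a 95% interval from -2.21 to 0.51, and the difference did not pass the test (limma adjusted p = 0.919). The other differences of Adipoq from water were -0.40 at PAE 0.1X, -0.20 at 1X, -0.50 at 3X and -0.48 with sitagliptin, all with a standard error of 0.66. Their 95% intervals together ran from -1.86 to 1.16 and each held 0. Lep in AFFB had only the bound given above (limma adjusted p = 0.919), and it differed from water by -0.19 at PAE 0.1X, 0.021 at 1X, -0.23 at 3X and -0.27 with sitagliptin (SE 0.34). None of these passed. Differences of Retn, Lipe, Pnpla2 and Pparg from water lay between -0.27 (Pnpla2, PAE 3X, SE 0.16) and 0.17 (Lipe, AFFB, SE 0.17). Retn in AFFB and at 0.1X and 1X, Lipe at 0.1X, 1X and with sitagliptin, and Pparg in AFFB and with sitagliptin were detected on no array of the treated group. Their fitted values there enter the counts and medians below but are not differences between measured levels.

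No member passed in any comparison with water. In AFFB against water, 0 of 6 members were called at a limma adjusted p under 0.05, against 0% of all kept probes. At PAE 0.1X, too, 0 of 6 were called against 0%, at 1X 0 of 6 against 0.00652%, at 3X 0 of 6 against 0.0457%, and with sitagliptin 0 of 6 against 0%. At an unadjusted limma p under 0.05 the members' count was also 0 of 6 in each, while 420 to 997 of the 15328 kept probes had one. With only 6 members, a count of 0 says little beside such a small share. The members' median difference was -0.15 in AFFB, -0.069 at 0.1X, -0.11 at 1X, -0.19 at 3X and -0.10 with sitagliptin. Medians over all kept probes lay between -0.004 and 0.016. Between 4 and 5 of the 6 members were lower than water in each comparison, which share the same 4 water arrays.

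Water replicate 3 carried much of this. Without it, 3, 2, 2, 3 and 1 of the 6 members were lower in AFFB, PAE 0.1X, 1X, 3X and sitagliptin, against 5, 4, 4, 5 and 4 with all arrays. Adipoq then differed from water by -0.28 in AFFB, 0.17 at 0.1X, 0.37 at 1X, 0.069 at 3X and 0.089 with sitagliptin, and no remaining water array detected Lep. The members' median without it was -0.023 in AFFB, 0.14 at 0.1X, 0.066 at 1X, 0.0058 at 3X and 0.094 with sitagliptin. The fitted differences of Retn stayed negative in AFFB and at all 3 extract doses, and those of Lipe at all 3 doses and with sitagliptin. Pnpla2, detected on all arrays, then differed by -0.052 in AFFB, 0.20 at 0.1X, 0.0047 at 1X, -0.15 at 3X and 0.21 with sitagliptin.

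Other arrays moved Adipoq too. No PAE 1X array other than replicate 1 detected it, and without PAE 3X replicate 4 its difference from water at 3X was -1.02. Without the 5 arrays of high Dbp, Adipoq differed from water by -1.22 in AFFB, -0.77 at 0.1X, -0.30 at 1X, -0.36 at 3X and -0.67 with sitagliptin. Leaving out water replicate 4 alone, which is 1 of those 5, gave -1.22 in AFFB, -0.77 at 0.1X, -0.57 at 1X, -0.87 at 3X and -0.85 with sitagliptin. Without the 3 arrays apart on the first principal component the Adipoq difference was -0.86 in AFFB, 0.020 at 1X and -0.85 with sitagliptin. None of these values passed the test.

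The beverage and its extract were compared at near-equal anthocyanin doses, 8.4 and 9.0 mg per kg per day. Adipoq was lower in AFFB than in PAE 1X by a difference of -0.65 (SE 0.66, 95% interval -2.01 to 0.71), and this rested on PAE 1X replicate 1, without which no PAE 1X array detected Adipoq or Lep. The fitted value for Adipoq was then 0.17. For Lep, AFFB had only a bound, and the PAE 1X mean was 1.14-fold that bound. Lipe was detected on no PAE 1X array, and the AFFB mean was 1.07-fold the PAE 1X bound, with 2 AFFB arrays detected. Neither passed (limma adjusted p = 0.9995 for both). Of the 6 members 0 were called, against 0.00652% of kept probes, and the members' median was -0.080, or 0.067 without PAE 1X replicate 1. The intervals of all 6 members held 0.

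Across water, 0.1X, 1X and 3X, scored 0 to 3, the slope of Adipoq was -0.13 per step (SE 0.21) and that of Lep -0.046 (SE 0.11). The smallest adjusted p among members was that of Pnpla2, with a slope of -0.10 per step (SE 0.051, limma adjusted p = 0.747). With the arrays scaled to a common median instead of quantile normalized, this slope was 0.028. Members called numbered 0 of 6 for the trend, against 0.157% of kept probes, and 0 of 6 in the test of any treatment, against 0.104%.

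**Figure D2:**
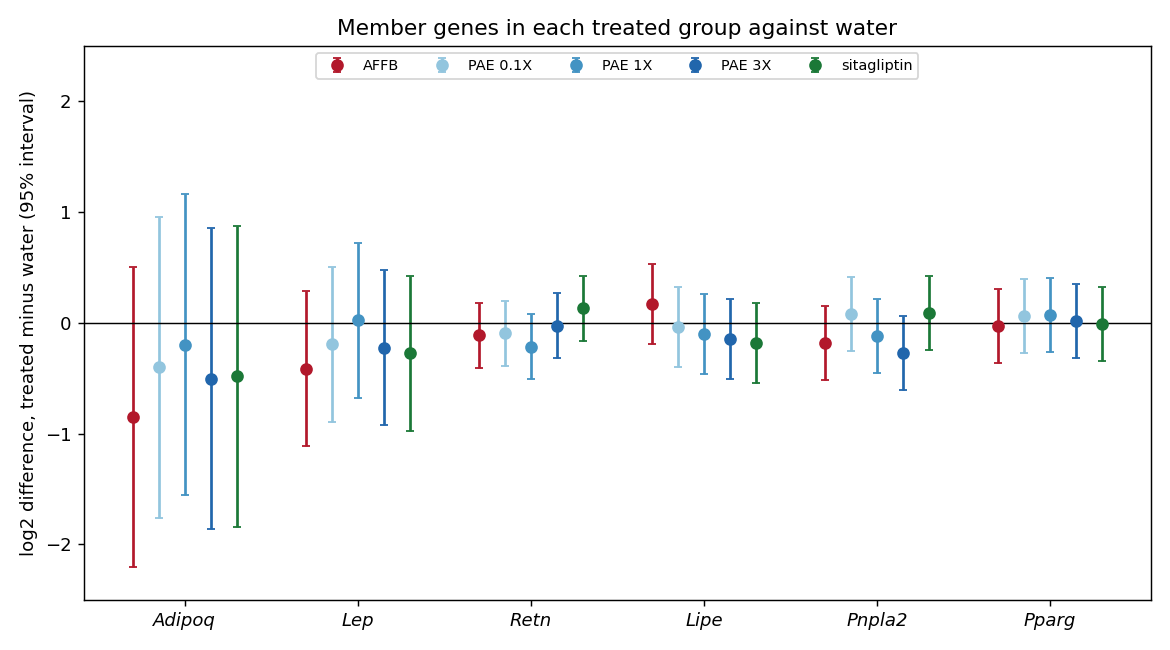
Log2 difference of each treated group from water (y axis) for the 6 genes with a kept probe (x axis), with points for the fitted difference and bars for its 95% interval. Every interval crosses 0, and those of Adipoq are the widest, from -2.21 to 0.51 in AFFB and from -1.56 to 1.16 in PAE 1X.

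Other genes of the adipocyte and its lipid handling were followed as a list of 19, with 18 read by a probe and 8 kept (Lpl, Plin4, Gpd1, Dgat2, Agpat2, Acvr1c, Thrsp, Car3). Among those not kept, the fatty acid transporter gene Cd36 and the glycerol-forming enzyme gene Pck1 were detected on 0 arrays, the glucose transporter gene Slc2a4 and the glycerol channel gene Aqp7 on 1 array each, and Mrap on 2. Against water, 1 was higher and 7 lower in AFFB (median -0.20), at PAE 0.1X (-0.28) and at 1X (-0.30), 2 were higher and 6 lower at 3X (-0.39), and 4 lay on each side with sitagliptin (-0.049). The genes with the smallest p in AFFB were Lpl (-0.51, SE 0.19), Dgat2 (-0.78, SE 0.40) and Car3, which no AFFB array detected, and none passed there. Plin4, a droplet coat gene, differed by -1.04 (SE 0.53) at PAE 3X and did not pass. Its lowest values, from 4.22 to 4.59, lay on the 5 arrays of high Dbp, none of which detected it. PAE 3X replicates 2 and 3 are among these, at 4.40 and 4.48, and the part of this pattern in the difference was not tested. Here too water replicate 3 weighed: without it, a setting chosen after the data were seen, Plin4 differed by -0.52 at 3X and Dgat2 by -0.52 in AFFB, and the list's medians were -0.096, -0.094, -0.087, -0.17 and 0.091 in AFFB, PAE 0.1X, 1X, 3X and sitagliptin.

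Lpl, which encodes the lipoprotein lipase that frees fatty acids from circulating triglyceride, was the only gene of any of the lists that passed. Its values were 8.23, 8.83, 8.84 and 8.40 on the water arrays and 7.70, 7.20, 7.35 and 7.74 on the PAE 3X arrays, without overlap. It was lower by a difference of -1.08 (SE 0.19, limma adjusted p = 0.0361) at PAE 3X and by -0.36 per step of the trend (SE 0.062, adjusted p = 0.0143). The call at 3X was lost under median scaling (-0.70, adjusted p = 0.359), without the 5 arrays of high Dbp (-0.92, adjusted p = 0.35), without a probe filter (adjusted p = 0.106) and with only the 2 groups fitted (adjusted p = 0.0896). The 5 arrays of high Dbp include water replicate 4 and PAE 3X replicates 2 and 3, so without them both groups were smaller. The call at 3X was also lost, with limma adjusted p-values from 0.052 to 0.172 and differences from -0.98 to -1.14, without any 1 of 8 arrays: water replicates 2, 3 and 4, PAE 0.1X replicate 2, PAE 1X replicate 3, and PAE 3X replicates 1, 2 and 3. The trend's call was lost under median scaling (-0.22 per step, adjusted p = 0.21), without the arrays of high Dbp (adjusted p = 0.144), with only those groups fitted (adjusted p = 0.0623), and without water replicate 2 (adjusted p = 0.0667), water replicate 3 (adjusted p = 0.0554) or PAE 3X replicate 3 (adjusted p = 0.0501). Lpl was detected on all 24 arrays, unlike Adipoq, and its expression is known in several tissues.

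Genes around the members showed no call in any comparison. Of 15 lipolysis and droplet partners 9 were kept, such as Mgll, which encodes monoglyceride lipase, with medians against water of 0.098, -0.026, 0.061, 0.046 and 0.068 in AFFB, PAE 0.1X, 1X, 3X and sitagliptin. Of 12 adipogenic transcription factors 8 were kept, with medians from 0.0045 to 0.069. The adiponectin receptor genes Adipor1 and Adipor2 were the 2 of 6 adipokine receptor genes kept, both detected on all arrays, and the leptin receptor gene Lepr was not kept. Brown adipocyte markers were kept for 3 of 9 genes, with medians from 0.040 to 0.31.

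Since the members varied within groups, they were set against each other over the 24 arrays. Of 15 pairs of kept members, only Adipoq and Lep passed. Pearson's r was 0.892 (permutation p = 2e-05, adjusted 3e-04) and Spearman's rho 0.805 (adjusted permutation p = 3e-04). Without the 2 arrays farthest from the Adipoq median, PAE 1X replicate 1 and water replicate 3, r was 0.752, and for deviations from the group means it was 0.887. Adipoq did not vary with Retn (r = -0.047), Lipe (r = -0.31) or Pnpla2 (r = 0.12) beyond what the permutations gave. With Pparg, r was 0.17 and rho 0.508, and neither passed (adjusted permutation p = 0.792 and 0.09).

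Cidec entered this comparison when no detection filter was applied, a setting chosen after the data were seen, in a family of 36 pairs. Its r with Adipoq was 0.878 (adjusted permutation p = 0.00036), while rho was 0.512 (adjusted permutation p = 0.144). Without the 2 arrays r was 0.696. For Lep and Cidec, r was 0.881 (adjusted permutation p = 0.0012), rho 0.461 (adjusted permutation p = 0.218) and r without the 2 arrays 0.477, so this relation rested mostly on them. Adipoq had r of 0.088 with Plin1 and -0.012 with Fabp4.

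Ranked by r with Adipoq, Lep had rank 2 among 15327 other kept probes and Cidec rank 4 among 45280 probes without the filter. In total 26 kept probes had an r of at least 0.7, 0 had -0.7 or below, and the median was 0.011. The highest, at 0.940, was the probe ILMN_2835423, which the platform annotation leaves unnamed. It was detected on 22 arrays and ranged from 4.49 to 9.39, with 9.39 on PAE 1X replicate 1, 9.28 on water replicate 3, 8.80 on PAE 3X replicate 4 and 8.40 on PAE 0.1X replicate 2. The 3 highest arrays were in the same order for Adipoq. Sitagliptin replicate 3, which had rank 4 for Adipoq, read 7.33 and lay below 3 further arrays that it exceeded for Adipoq.

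The 10 other genes most like Adipoq, by r over the 24 arrays and given without a test, were led by Mmd (0.888), which encodes a membrane protein of the progestin and adipoQ receptor family. They included genes of fat synthesis, namely the desaturase gene Scd1 (0.794), the triglyceride synthesis gene Dgat2 (0.767) and the lipogenic regulator gene Thrsp (0.769). Carbonic anhydrase 3 (Car3, 0.804), the cytochrome Cyp2e1 (0.782) and the amine oxidase Aoc3 (0.760) were also among them, as were the interferon-induced Ifi27l2a (0.806), the annexin Anxa2 (0.779) and the ribonuclease Ear3 (0.758). Car3 read 6.34 on water replicate 3 and 5.28 on PAE 1X replicate 1, against 4.20 to 4.83 on the other arrays. Scd1, detected on all arrays, read 9.23 on PAE 1X replicate 1 and 8.57 on water replicate 3, with a median of 6.85. Dgat2 read 6.85 and 6.60 on those arrays, with a median of 5.38. Leaving out these 2 arrays kept 4 of the 10 genes in the list, and the other settings tried kept 8 to 10. None of the 10 passed in a comparison with water, and Car3, Thrsp and Dgat2 were also in the list of further adipocyte genes.

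**Figure D3:**
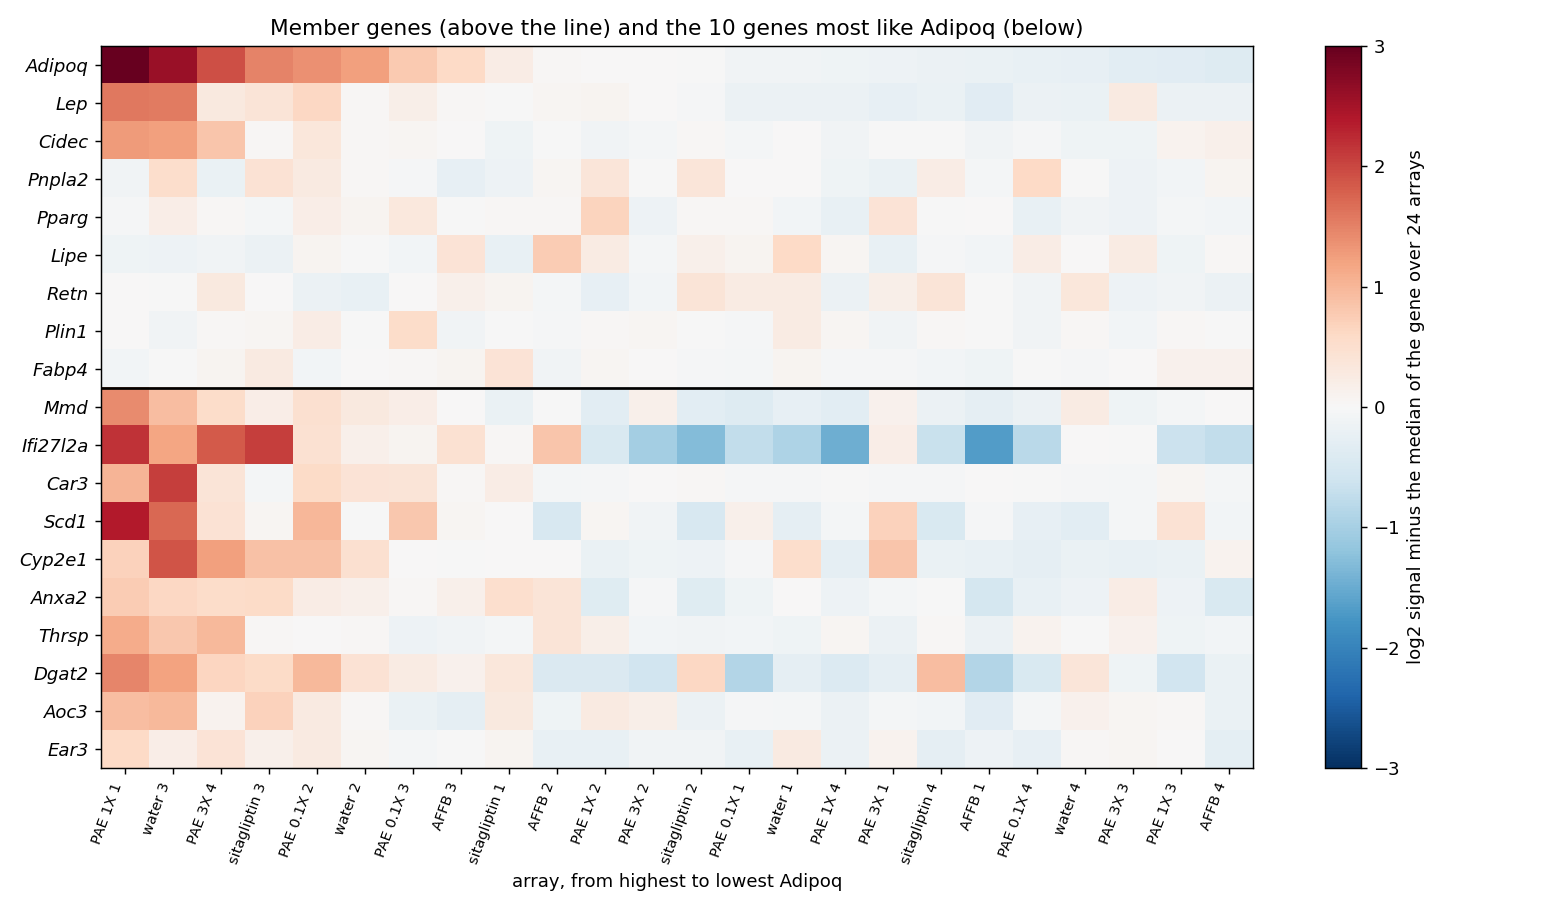
Log2 signal minus the gene's median over 24 arrays (colour) for 9 member genes and the 10 genes most like Adipoq, with the arrays ordered from the highest to the lowest Adipoq. The left columns, PAE 1X replicate 1 and water replicate 3, are red for Adipoq, Lep, Cidec and most genes below the line, and pale for Lipe, Retn, Plin1 and Fabp4.

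The mean of each of 17 gene lists per array was then set against Adipoq. The 8 further adipocyte genes had r = 0.852 (adjusted permutation p = 0.00017, from the smallest p that 100000 resamples can give) and rho = 0.686 (adjusted permutation p = 0.00527). Without the 2 arrays r was 0.712, and within groups 0.907. All 8 genes had a positive r, and 4 passed over the 24 genes tested singly: Car3 (0.804), Thrsp (0.769), Dgat2 (0.767) and Lpl (0.495, adjusted permutation p = 0.0312). By rho, Dgat2 (0.583), Car3 (0.524) and Gpd1 (0.470, adjusted permutation p = 0.0454) passed, while Thrsp (0.397, adjusted permutation p = 0.0788) and Lpl (0.421, adjusted permutation p = 0.0659) did not. The r of Lpl was 0.709 within groups and 0.331 without the 2 arrays. Without them r was 0.727 for Car3, 0.611 for Dgat2 and 0.478 for Thrsp. Car3 and Thrsp were each detected on only 4 arrays, and those that detected Car3 all detected Adipoq.

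Some macrophage genes varied with Adipoq as well. The macrophage list of 8 kept genes had r = 0.699 (adjusted permutation p = 0.00119) and rho = 0.494 (adjusted permutation p = 0.0496), with r = 0.449 without the 2 arrays and 0.705 within groups. The complement genes C1qb (r = 0.742), C1qc (0.658) and C1qa (0.624) and the scavenger receptor gene Cd163 (0.507) passed singly. Without the 2 arrays their r lay between 0.464 and 0.611. Cd163 was detected on only 6 arrays, and its highest value, 5.10, was on AFFB replicate 2, which did not detect Adipoq. Mrc1 (0.390), Lyz2 (0.346), Cd14 (0.327) and Csf1r (0.071) did not pass, and without the 2 arrays their r lay between -0.116 and 0.046. C1qb read 6.80 on PAE 1X replicate 1 and 6.45 on water replicate 3, with a median of 5.78. The macrophage mean lay between 5.28 and 5.75 in water, 5.03 and 5.52 in AFFB, and 5.03 and 5.74 with sitagliptin. At the rising extract doses its limits were 5.06 and 5.39, 4.82 and 5.87, then 5.04 and 5.46, so the groups overlapped. Of 11 macrophage genes listed, 10 had a probe and 1 of these was detected on 0 arrays. What macrophages contributed to the Adipoq values was not tested.

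Islet genes ran the other way. The list of 8 had r = -0.484 (adjusted permutation p = 0.0884) and rho = -0.526 (adjusted permutation p = 0.0382), so the rank relation passed and the linear one did not. All 8 had a negative r, and 5 passed singly, with G6pc2 (-0.514), Gcg (-0.511), Chga (-0.472) and Ins2 (-0.462) the strongest. Ins2 was lowest, at 10.7, on PAE 1X replicate 1, the array of highest Adipoq. Without the 2 arrays the r of the islet list was -0.362. For the 5 genes that passed singly it then lay between -0.478 (G6pc2) and -0.258 (Ins2).

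By r no other list passed, among them acinar (-0.363), endothelial (-0.245), collagen and stellate (0.345), mesothelium (0.326), adipose stroma (0.242), B and plasma cell (0.204), T and NK cell (0.151, Cd3e alone), erythroid (0.128), duct (-0.091), clock (-0.409), adipogenic transcription factors (0.125) and adipokine receptors (-0.033). By rho, lipolysis and droplet partners (0.570, adjusted permutation p = 0.0237) and the 3 brown adipocyte genes (0.625, adjusted permutation p = 0.0113) passed. No skeletal muscle gene was kept. Of 3 measures of the array itself, the share of detected probes had r = 0.247 with Adipoq (adjusted permutation p = 0.327), while the first principal component (rho = 0.512) and Dbp (rho = -0.497) passed by rank (adjusted permutation p = 0.0222 for both) and not by r. Their part in the values of Adipoq was not tested.

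**Figure D4:**
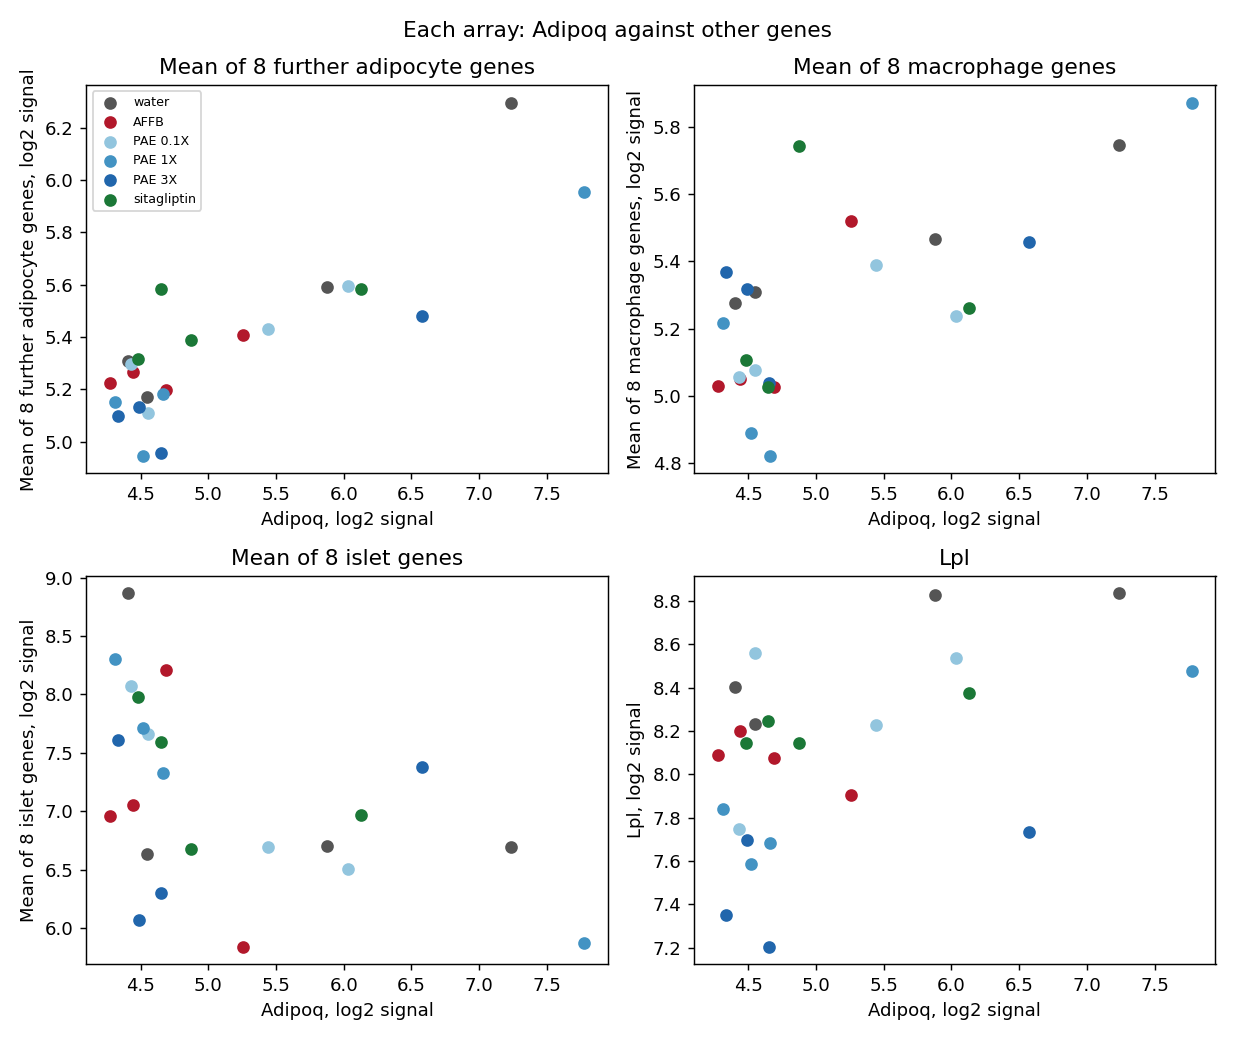
Log2 signal of Adipoq on each of the 24 arrays (x axis) against the mean of 8 further adipocyte genes, of 8 macrophage genes and of 8 islet genes, and against Lpl (y axes, log2 signal), with colours for the groups. The arrays of highest Adipoq, PAE 1X replicate 1 and water replicate 3, lie at the top of the adipocyte and macrophage panels and in the lower part of the islet panel, and the PAE 3X arrays lie low for Lpl at every Adipoq level.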

How the data were processed

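Total pancreas RNA was hybridised to single-colour Illumina bead arrays, per the labels. The deposited signals are linear intensity values per probe, per the file headers, and were not background-corrected. The deposited detection p-value sits beside each signal and its step size corresponds to 936 negative controls. A second deposited table held log2 values. R 3.1.2 and limma 3.22.1 are named in the submitters' processing notes. These log2 values matched the normalization used here to 0.104 at most, and every array had a median of 4.37. No platform chip or scan order was given in the sources used here, so batches could not be examined.

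Signals were normalized with neqc (limma 3.58.1, R 4.3.3, offset 16), and 15328 probes detected on at least 4 arrays were kept, 13086 of them with 1 symbol. One limma fit over all 24 arrays gave the comparisons, with Benjamini-Hochberg adjustment over all kept probes and a threshold of 0.05. Tests are two-sided. The number of arrays, 4 per group, limits precision. Where no array of a group detected a probe, its level there is a bound, set at the lowest detected signal of each array or its own, whichever was higher. The group compared with it kept its undetected arrays at their own signal. Correlations used 100000 permutations, adjusted within each family. The fit was tested on simulated data.

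Members, gene lists, tests and alternatives were chosen with earlier results of these data known. Each gene is read by its kept probe of highest mean. All members are named, with up to 4 genes of another list (those of smallest p) and the 10 genes of highest r with Adipoq. Plin4, Csf1r, Mrc1, Lyz2, Cd14, the adiponectin and leptin receptors, Mgll and the undetected list genes were named after their values were seen. Arrays of a group correlated at 0.931 or more and no 2 arrays above 0.985.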

Additional observations from a re-analysis of the deposited data

Results flagged for a closer look

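Among 42 groups of 4 arrays (the 6 kept members and Cidec, in 6 groups each), 9 held 1 array far from the other 3, by Dixon's criterion at its 95% critical value. For independent, normally distributed values chance gives about 1 in 20 such groups. That rate does not carry over here, as most values lay near background and Adipoq, Lep and Cidec varied together. Cidec was included though it had not passed the filter, while Plin1 and Fabp4 were left out. All 9 were high arrays, and 8 of them fell on 3 arrays. On PAE 1X replicate 1, Adipoq was 7.78 (other PAE 1X arrays 4.31 to 4.66), Lep 6.14 (4.38 to 4.65) and Cidec 5.62 (4.23 to 4.45). On water replicate 3, Lep was 6.13 (other water arrays 4.37 to 4.59), Cidec 5.58 (4.22 to 4.38) and Pnpla2 8.12 (7.59 to 7.63). On PAE 3X replicate 4, Adipoq was 6.58 (other PAE 3X arrays 4.34 to 4.65) and Cidec 5.16 (4.21 to 4.33). The last was Pnpla2 on PAE 1X replicate 2, at 7.97 (7.48 to 7.53), an array that also stood apart on the first principal component.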

How the results depend on the processing

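Over 35 settings (11 alternatives and each of the 24 arrays left out), 1435 member values were recomputed and 0 passed the threshold. Median scaling moved the median of all kept probes to 0.13 at PAE 1X, 0.16 at 3X and -0.13 for AFFB against PAE 1X. Under it Pnpla2 became 0.18 at 1X, 0.064 at 3X and 0.028 per step, Retn 0.022 at 3X, and Lpl -0.70 at 3X and -0.22 per step, both no longer past the threshold. Retn at 3X was 0.0050 without background correction. With only probes detected on all arrays, Pnpla2 alone remained and the sitagliptin median was 0.084. Without the 3 arrays far on the first principal component, Adipoq at 1X was 0.020, Pparg -0.12 at 1X, 0.0067 with sitagliptin, 0.071 for AFFB against PAE 1X and -0.012 per step, and Pnpla2 0.023 for AFFB against PAE 1X. Without the 5 arrays of high Dbp, the member median at 3X was -0.33 and Retn 0.23 at 3X and 0.057 per step. Lists that passed with Adipoq by r numbered 2, against 6 under median scaling and 4 on deviations from group means. The cause of these shifts was not tested.

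Leaving out 1 array gave these ranges of fitted values, which are not between measured levels where no remaining array of a group detected the gene. Adipoq against water ran from -0.77 to 0.17 at 0.1X, -1.02 to 0.37 at 1X, -1.02 to 0.069 at 3X and -0.85 to 0.089 with sitagliptin, per step from -0.29 to 0.041, and for AFFB against PAE 1X from -0.99 to 0.17. Lipe for AFFB against PAE 1X ran from 0.11 to 0.39, Lep for it from -0.60 to -0.016 and the member median from -0.16 to 0.067. Against water Lep ran from -0.58 to 0.0068 in AFFB, -0.36 to 0.23 at 0.1X, -0.40 to 0.44 at 1X, -0.39 to 0.19 at 3X, -0.44 to 0.15 with sitagliptin and -0.096 to 0.080 per step. Retn ran from -0.13 to 0.057 at 3X and -0.051 to 0.0049 per step, and Lipe from -0.13 to 0.12 at 0.1X, -0.19 to 0.060 at 1X and -0.24 to 0.017 at 3X. Pnpla2 ran from -0.055 to 0.20 at 0.1X, -0.24 to 0.0047 at 1X and -0.10 to 0.059 for AFFB against PAE 1X. Pparg ran from -0.075 to 0.024 in AFFB, -0.020 to 0.16 at 0.1X, -0.12 to 0.18 at 1X, -0.11 to 0.083 at 3X, -0.057 to 0.042 with sitagliptin, -0.21 to 0.087 for AFFB against PAE 1X and -0.031 to 0.026 per step. The member median ran from -0.14 to 0.14 at 0.1X, -0.17 to 0.066 at 1X, -0.26 to 0.0058 at 3X and -0.14 to 0.094 with sitagliptin.

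Deviations of same-numbered arrays of different groups had r from -0.553 to 0.630 over 60 pairs, with a median of 0.033. Of these pairs 21 lay over 0.1, and the median of other-numbered pairs was -0.014. Whether some same-numbered arrays shared a batch cannot be told from these values. With the replicate number as a block, 0 members were called, as without it. Adipoq in AFFB stayed at -0.85 by design, since each group holds the same replicate numbers and the block cannot move a group difference. The r of Adipoq with Lep, with the further adipocyte genes and with the macrophage list passed in all 6 settings tried. The test of any treatment has no value with only the groups compared, and no second kept probe of a member existed to try. The pairs without a detection filter, the place of Cidec, the repeats of the likeness list, and the further adipocyte genes without water replicate 3 were chosen after seeing the data. Most members lie near the array's background, where signal understates differences.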
